A study of Mus musculus with 6 samples.

Results

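The genes described are the 10 that form the RANK axis and the osteoclast differentiation program, namely Tnfsf11, Tnfrsf11a, Tnfrsf11b, Nfatc1, Acp5, Ctsk, Dcstamp, Ocstamp, Mmp9 and Calcr. They were chosen by gene name, and each name matched 1 of the 25722 genes listed. Their RNA was compared in 6 cultures of mouse BMSCs (adherent bone marrow stromal cells of C57BL/6 mice), 3 of them kept with DMSO as the control and 3 with all-trans retinoic acid (RA). The cells were plastic-adherent marrow cells at an early passage, freed of non-adherent cells, and the comparison asks how RA changed their RNA. The labels give 48 h of treatment for both groups and 1 μM as the dose of RA, whereas the study's methods give a lower dose and a shorter time. All cultures shared low-glucose DMEM with 20% serum, 5% O2 and 10 μM ROCK inhibitor. The labels mention 2 biological replicates, yet each group has 3 libraries, and do not say which cultures came from separate mice. P-values therefore measure the spread between these libraries, which may be technical.

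RANKL, encoded by Tnfsf11, is made by stromal and osteoblast lineage cells. It binds RANK (Tnfrsf11a) on myeloid precursors, and through TRAF6, NF-κB and AP-1 this raises NFATc1, the master transcription factor of the osteoclast. Osteoprotegerin (Tnfrsf11b) is a soluble decoy receptor that stromal cells secrete and that keeps RANKL from RANK. NFATc1 then switches on the fusion proteins DC-STAMP and OC-STAMP, the enzymes that dissolve bone, and the calcitonin receptor of the mature osteoclast.

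Promoters of the ligand, of its receptor and of the collagenase gene Ctsk are shown because they stand at the head and at the end of this axis. They are RefSeq sequences on GRCm38.p6, limited to the bases before the start site that lie in no annotated exon. Capitals mark GGAAA, the core of NFAT sites, and GAGGAA, the core of PU.1 sites, on either strand.
Tnfsf11, chr14:78308044-78308293, minus strand: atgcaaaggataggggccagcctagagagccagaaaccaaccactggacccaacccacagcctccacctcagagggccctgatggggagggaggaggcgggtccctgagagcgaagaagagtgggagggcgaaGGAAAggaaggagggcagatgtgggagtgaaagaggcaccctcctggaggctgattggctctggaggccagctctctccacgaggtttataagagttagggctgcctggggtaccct
Tnfrsf11a, chr1:105780473-105780717, plus strand: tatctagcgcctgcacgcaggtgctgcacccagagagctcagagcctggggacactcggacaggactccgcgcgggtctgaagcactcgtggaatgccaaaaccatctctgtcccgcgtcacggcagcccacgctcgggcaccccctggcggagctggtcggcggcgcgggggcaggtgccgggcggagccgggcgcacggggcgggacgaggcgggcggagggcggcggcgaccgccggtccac
Ctsk, chr3:95498960-95499209, plus strand: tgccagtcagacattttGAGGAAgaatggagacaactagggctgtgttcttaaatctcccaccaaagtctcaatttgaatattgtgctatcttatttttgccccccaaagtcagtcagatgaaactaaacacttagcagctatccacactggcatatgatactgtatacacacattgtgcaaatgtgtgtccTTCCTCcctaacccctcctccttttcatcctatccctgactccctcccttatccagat
The Tnfsf11 window held 1 GGAAA, and the Ctsk window held 2 GAGGAA. Of 32851 RefSeq promoter windows of 250 bases, 55.6% held GGAAA and 23.3% held GAGGAA, so these letters are common. GAGGAA followed by A would contain GGAAA, which was not the case here. The retinoid response element known as DR5, a direct repeat of AGGTCA with any 5 bases between, was in none of the 3 windows and in 0.00913% of all windows. AGGTCA alone, which that element contains, was in none of the 3 and in 14% of all. The AP-1 letters TGANTCA were also in none of the 3, and in 6.75% of all. The E-box letters CANNTG were in each of the 3 and in 66.2% of all.

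The libraries held between 14737636 and 18511905 counts, so 1 count stood for 0.0531 to 0.0699 CPM (counts scaled to library size by the TMM method). Cyp26b1, the RA-degrading enzyme and a check of the treatment, stood at 4.67 to 5.95 CPM in the controls and at 87.0 to 124 CPM after RA. The libraries did not group by treatment. The first principal component of variable genes, taken without the genes of this pathway, parted control 2, RA 1 and RA 2 (set 1) from control 1, control 3 and RA 3 (set 2), and no label names a batch. Chi-square per degree of freedom between libraries of a group was 4.81 for control 1 and control 3 and 30.2 for RA 1 and RA 2, the pairs within a set, and 85.0 to 91.7 for pairs across sets. Whether libraries of a set share a source was not tested, and each is counted in n. Values within the sets stand beside the pooled ones for the main results, where set 1 holds 1 control and set 2 holds 1 RA library, and the fit with the set as a covariate is called set-adjusted. The sets were drawn from the RNA of these same libraries, so p-values of that fit do not allow for this choice and may be too small. The set-adjusted fit called 213 of all tested genes, against 6 without the covariate. The 14 macrophage markers summed to between 19559 and 21622 CPM in the controls and to between 19217 and 20183 CPM after RA, led by Lyz2. The 14 stromal markers, led by Col1a1, summed to between 1989 and 4093 CPM in the controls and between 1272 and 2953 CPM after RA. Osteoblast markers (led by Alpl) summed to 45.4 to 86.5 CPM over all libraries, while lymphoid (Cd4) and dendritic cell markers (Itgax) reached at most 3.43 CPM. Thus both the myeloid and the stromal side of the axis were present in RNA labelled BM-MSC. In such bulk RNA, fewer cells of a type and less RNA per cell cannot be told apart.

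Of the 10 genes, 8 passed the expression filter and 0 were called by edgeR's quasi-likelihood test, a call needing 1.5-fold or more and an adjusted p under 0.05. Of the 13842 tested genes 0.0433% were called, 0.0361% higher and 0.00722% lower after RA. At an unadjusted p under 0.05 there were 3, Tnfrsf11b, Mmp9 and Tnfsf11, where 5.25% of tested genes reached that level, 2.89% higher and 2.36% lower. The same 3 also changed by 1.5-fold or more in the fit, where 3.55% of tested genes met both. DESeq2 called 1 of the 8, which was lower (0.983% of genes, 0.708% higher and 0.275% lower), the edgeR likelihood ratio test called 1 (0.968%), and the set-adjusted edgeR fit called 2 (1.54%, 0.744% higher and 0.795% lower). Tnfrsf11b was the gene called by each of these fits, and Mmp9 joined it in the set-adjusted fit. Differences of 1.5-fold or more in the same direction within both sets were seen in 4 of the 8, Tnfsf11 and Mmp9 being higher and Tnfrsf11b and Ctsk lower, where 4.35% of tested genes did so (2.06% higher, 2.29% lower). The groups did not overlap in 2 of the 8, where 12.6% of tested genes did not. The levels of the receptor and of the other osteoclast genes overlapped between the groups. Tnfsf11 and Ocstamp passed the filter only through the group where each was higher, so their share in these counts is no independent support.

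**Figure D1:**
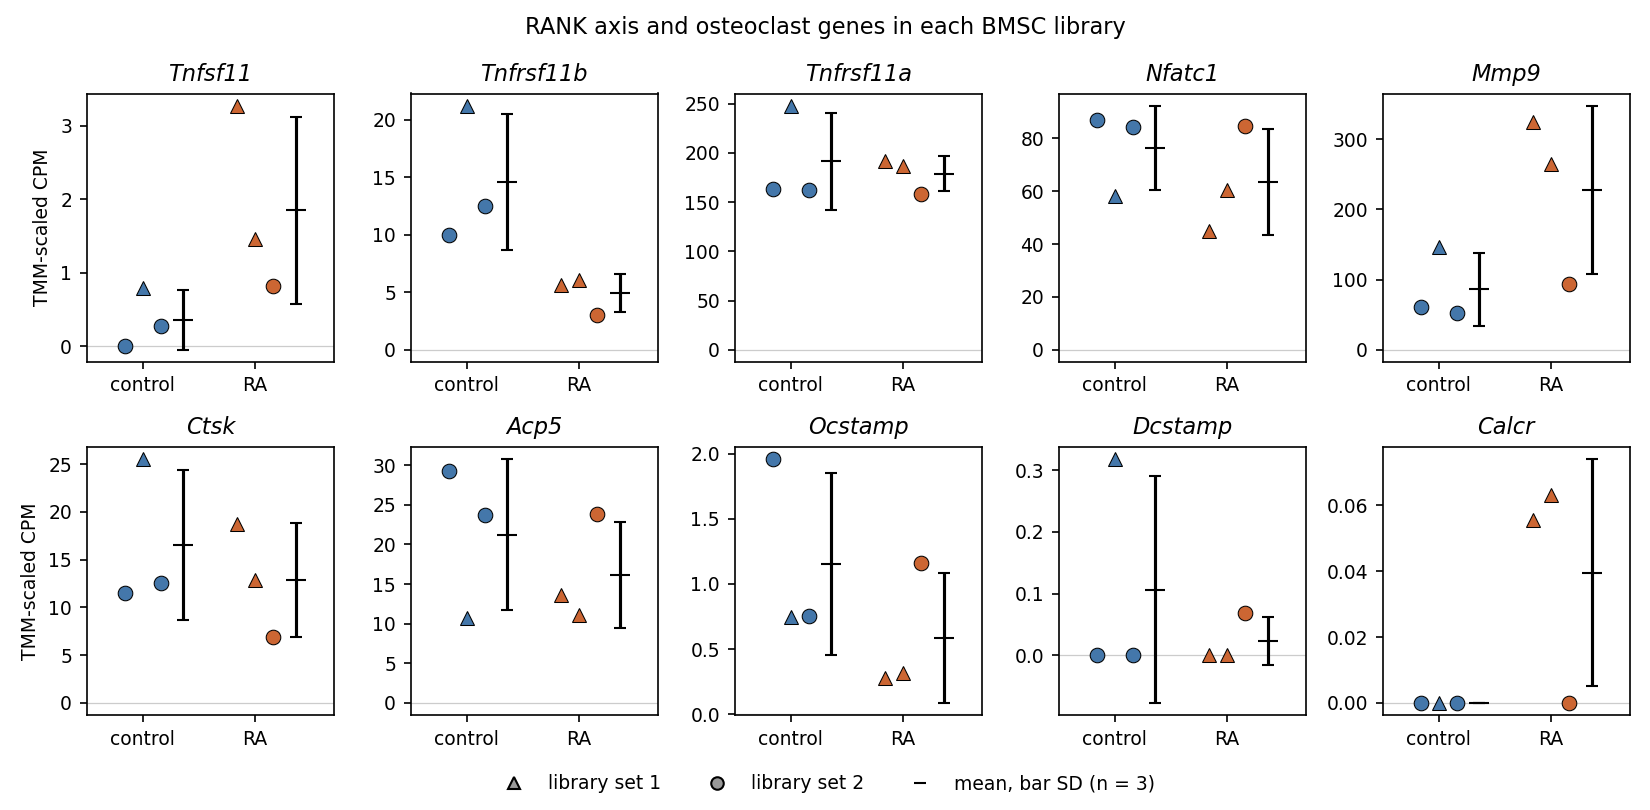
TMM-scaled CPM of the 10 genes in each library, in control (blue) and RA-treated (orange) BMSCs, with triangles for library set 1 and circles for set 2, and the mean with its SD (n = 3) beside them. The RA libraries lie below all controls for Tnfrsf11b and above all controls for Tnfsf11 by a narrow margin, while the groups overlap for the other genes or sit near 0.

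Tnfrsf11b (ENSMUSG00000063727, minus strand of chromosome 15 from 54250619 to 54278484 on GRCm38), the osteoprotegerin gene, stood at 10.0, 21.2 and 12.5 CPM in controls 1 to 3. After RA it stood at 5.66, 6.07 and 3.07 CPM. Every RA-treated library lay below every control, which held for 6.87% of tested genes. The mean was 14.6 ± 5.90 CPM (SD, n = 3) in the controls and 4.93 ± 1.63 CPM (SD, n = 3) after RA. Here edgeR gave -1.56 for the log2 fold change (standard error, SE, 0.38, adjusted p = 0.458 in edgeR, unadjusted p = 0.00493). The adjusted p was 0.0201 with DESeq2 and 0.0295 with the edgeR likelihood ratio test. In the set-adjusted fit Tnfrsf11b fell by 1.86 on the log2 scale (SE 0.15, adjusted p = 0.00257 in edgeR). The log2 difference was -1.84 within set 1 and -1.83 within set 2, so it was nearly the same size in both.

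Osteoprotegerin is a stromal product, so Tnfrsf11b was also set against the stromal markers of the same library, a measure added after its values were seen and given as a description. The summed stromal CPM stood lower after RA within each set, but Col1a1, Col1a2 and Col3a1 made up 81.7 to 90.3% of it. The 11 tested markers did not move together, with 5 above and 6 below 0 in pooled log2 fold change. Pdgfra, Lepr and Dcn stood higher after RA within both sets (pooled log2 fold changes 0.83, 3.35 and 0.52). Ly6a (-0.90), Prrx1 (-0.16), Col1a1, Col1a2 and Col3a1 stood lower within both sets. Vcam1 and Eng were lower after RA in set 1, while in set 2 RA 3 lay between control 1 and control 3. Pdgfrb overlapped in set 1 and was higher after RA in set 2. The edgeR test called 0 of the 11, with 3 (27.3%, Dcn, Lepr and Ly6a) at an unadjusted p under 0.05 against 5.25% of all genes. Lepr lay under the filter's minimum of 0.658 CPM in all controls and was tested through the RA group.

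The log2 ratio of Tnfrsf11b to the summed, mainly collagen, CPM was -7.64, -7.59 and -7.46 in the controls and -9.03, -8.20 and -8.70 after RA. The mean difference was -1.08, with -1.02 within set 1 and -1.15 within set 2. Against the mean log2 CPM of the 11 tested markers, each weighted equally, the difference was -1.77, with -1.76 within set 1 and -2.02 within set 2. Without Lepr it was -1.48, with -1.50 within set 1 and -1.60 within set 2. The size of the difference thus depended on the reference.

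Tnfsf11 (ENSMUSG00000022015, minus strand of chromosome 14 from 78277445 to 78308043), the RANKL gene, had 0, 15 and 4 counts in controls 1 to 3 and 59, 23 and 12 counts in RA 1 to 3. Scaled, this was 0, 0.797 and 0.275 CPM in the controls and 3.28, 1.46 and 0.818 CPM after RA. All RA libraries lay above all controls (5.7% of tested genes), but the lowest RA library and the highest control were almost level, and their order turned with scaling by library total alone (0.802 against 0.810 CPM). The fitted change was 2.28 on the log2 scale (SE 0.93, adjusted p = 0.795 in edgeR, unadjusted p = 0.0451), with log2 differences of 1.33 within set 1 and 2.08 within set 2. It ranged from 1.60 without RA 1 to 3.69 without control 2. The adjusted p was 0.693 with DESeq2 and 0.251 in the set-adjusted edgeR fit. Tnfsf11 reached the filter's minimum in 3 RA libraries and 1 control, so it was tested only because it was higher after RA.

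The balance of ligand and decoy was read within each library as the share of Tnfsf11 among the counts of both genes, which needs no scaling between libraries. A log2 ratio had been intended but could not be formed in control 1, which had 0 Tnfsf11 counts. The share was chosen after both genes had been seen to separate the groups in opposite directions, so its separation was fixed by that choice and is given with no test. In control 1 the share was 0 of 143 counts (95% exact Clopper-Pearson interval 0 to 2.55%, with 3 counts standing for 2.10%). In control 2 it was 3.61% of 415 counts (2.04 to 5.89%). In control 3 it was 2.15% of 186 counts (0.589 to 5.41%).

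After RA the share was 36.6% of 161 counts in RA 1 (29.2 to 44.6%), 19.3% of 119 in RA 2 (12.7 to 27.6%) and 21.1% of 57 in RA 3 (11.4 to 33.9%). The intervals cover counting error only. The mean share was 1.92% ± 1.82 (SD, n = 3) in the controls and 25.7% ± 9.54 (SD, n = 3) after RA. The share was higher by 24.4 percentage points within set 1 and by 20.0 within set 2. Per exon length Tnfrsf11b still stood above Tnfsf11 in 6 of 6 libraries, with 2.01 against 1.46 RPKM (CPM per kilobase of exon) in RA 1, where they were closest.

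**Figure D2:**
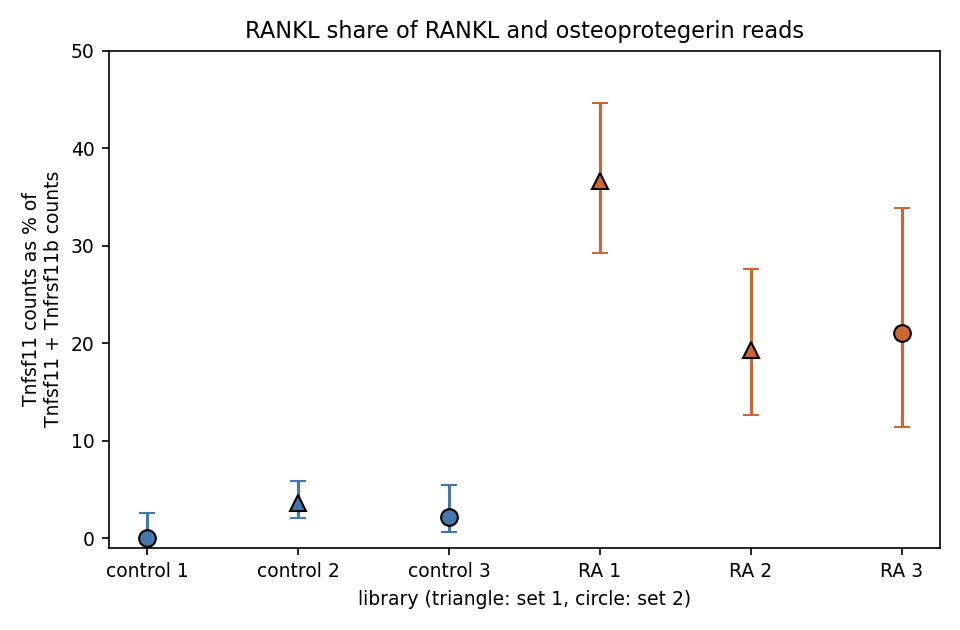
Tnfsf11 counts as a percentage of Tnfsf11 and Tnfrsf11b counts in each library, with exact 95% binomial intervals. The 3 controls sit between 0 and 3.61%, below the 3 RA libraries at 19.3 to 36.6%.

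Tnfrsf11a (ENSMUSG00000026321, plus strand of chromosome 1 from 105780718 to 105847981), the RANK receptor gene, stood at 163, 248 and 163 CPM in the controls. After RA it stood at 192, 187 and 158 CPM. Control 2 was the highest and RA 3 the lowest, and the groups overlapped. The log2 fold change was -0.10 (SE 0.20, adjusted p = 0.908 in edgeR), and it was 0.15 without control 2, so its sign rested on that library. Within sets the log2 difference was -0.39 and -0.04. RANK ranked at the 88.6 percentile of tested genes by RPKM averaged over the libraries, next to 11.7 for its ligand and 41.1 for the decoy.

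Nfatc1 (ENSMUSG00000033016), which drives the osteoclast program, stood at 87.1, 58.1 and 84.2 CPM in the controls. After RA it stood at 45.0, 60.5 and 84.8 CPM. The high values were those of set 2 in either group, and the log2 fold change was -0.27 (SE 0.26, adjusted p = 0.818 in edgeR). Within sets the log2 difference was -0.15 and -0.01. The pooled value ran from -0.05 without RA 1 to -0.54 without RA 3.

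The fusion genes were close to the detection limit. Ocstamp (ENSMUSG00000027670, chromosome 2 from 165393760 to 165400405) had 28, 14 and 11 counts in the controls and 5, 5 and 17 after RA, with RA 3 inside the range of the controls. Its log2 fold change was -0.99 (SE 0.69, adjusted p = 0.795 in edgeR), -1.04 within set 1 and -0.08 within set 2. It ran from -0.38 without control 1 to -1.92 without RA 3. It met the filter's minimum in 3 controls and 1 RA library, so it was tested through the group where it was higher. Dcstamp (ENSMUSG00000022303, chromosome 15 from 39745930 to 39760938) had 6 counts in control 2, 1 in RA 3 and 0 in the 4 other libraries, and was not tested. Calcr (ENSMUSG00000023964, chromosome 6 from 3685680 to 3764714), the calcitonin receptor that marks mature osteoclasts, had 1 count in RA 1, 1 in RA 2 and 0 elsewhere. Both groups were at or under 3 counts per library for Calcr, so no fold was formed.

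Mmp9 (ENSMUSG00000017737, plus strand of chromosome 2 from 164940780 to 164955850), a gelatinase that osteoclasts secrete and that macrophages and neutrophils also make, stood at 60.6, 146 and 52.3 CPM in the controls. After RA it stood at 325, 265 and 94.0 CPM. The groups overlapped because control 2 lay above RA 3, and within each set every RA library lay above every control. The mean was 86.4 ± 52.0 CPM (SD, n = 3) in the controls and 228 ± 120 CPM (SD, n = 3) after RA. Its log2 fold change was 1.40 (SE 0.56, adjusted p = 0.795 in edgeR, unadjusted p = 0.0430). In the set-adjusted fit Mmp9 rose by 0.88 on the log2 scale (SE 0.12, adjusted p = 0.0167 in edgeR), whereas DESeq2 without the set gave an adjusted p of 0.416. The log2 difference was 1.00 within set 1 and 0.74 within set 2. The 5 listed neutrophil markers, led by S100a8, summed to between 3.02 and 4.41 CPM in the controls and between 3.29 and 3.997 CPM after RA. Which cells the Mmp9 RNA came from was not tested.

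Ctsk (ENSMUSG00000028111, plus strand of chromosome 3 from 95499256 to 95509362), cathepsin K, the collagen-cleaving protease of osteoclasts that fibroblasts also express, stood at 11.5, 25.5 and 12.6 CPM in the controls. After RA it stood at 18.8, 12.9 and 6.88 CPM. The groups overlapped, while within each set the RA libraries lay below the controls (log2 difference -0.71 and -0.79). The pooled log2 fold change was -0.36 (SE 0.45, adjusted p = 0.844 in edgeR) and turned to 0.11 without control 2. In the set-adjusted fit it was -0.74 (SE 0.17, adjusted p = 0.101 in edgeR).

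Acp5 (ENSMUSG00000001348, minus strand of chromosome 9 from 22126727 to 22135711), tartrate-resistant acid phosphatase, whose activity is stained to show osteoclasts, stood at 29.3, 10.7 and 23.7 CPM in the controls. After RA it stood at 13.6, 11.1 and 23.8 CPM. As for Nfatc1, the high libraries were those of set 2 in either group. The log2 fold change was -0.39 (SE 0.43, adjusted p = 0.836 in edgeR), and it was 0.02 in the set-adjusted fit. Within sets the log2 difference was 0.19 and -0.15, and the pooled value ran from -0.09 without control 1 to -0.78 without RA 3. Of the Acp5 exon length, 6.75% also lies in exons of 6530413G14Rik on the other strand, and whether the counting used strand is not given in the sources used here.

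**Figure D3:**
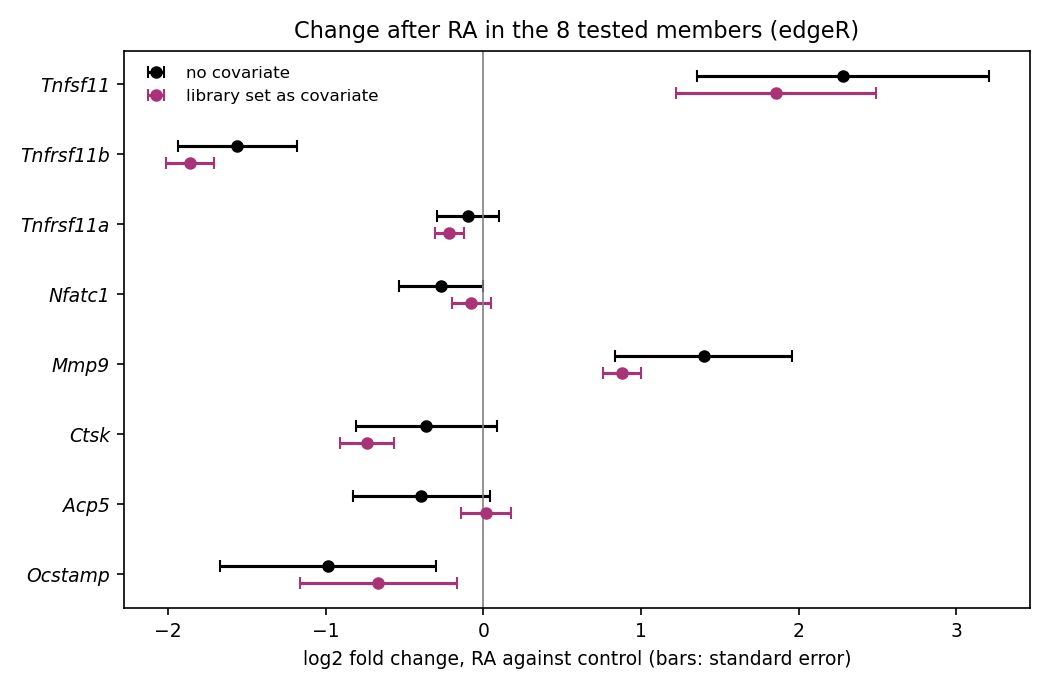
Fold change (log2) after RA of the 8 tested genes by edgeR's quasi-likelihood test, with bars of 1 standard error, without a covariate (black) and set-adjusted (purple). Tnfrsf11b lies at -1.56 and -1.86 and Mmp9 at 1.40 and 0.88, while Acp5 moves across 0 from -0.39 to 0.02.

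By level per exon length, averaged over the 6 libraries, Mmp9 came first with 44.4 ± 32.0 RPKM (SD, n = 6) and Tnfrsf11a followed with 30.9 ± 5.64 RPKM. Their order went with the group, Mmp9 being the higher in the 3 RA libraries (mean 64.4 against 29.9 RPKM) and Tnfrsf11a in the 3 controls (32.0 against 24.4 RPKM), by a narrow margin in control 2 and RA 3. Per coding length the pooled order turned, with 71.8 for Mmp9 and 98.8 for Tnfrsf11a. Tnfrsf11a stood above Ctsk in every library with no overlap of their ranges. Ctsk (9.72 RPKM), Nfatc1 (9.36 RPKM) and Acp5 (9.21 RPKM) could not be ordered, since neighbours changed places between libraries. Tnfrsf11b at 3.46 RPKM was under Acp5 in 5 of 6 libraries. Tnfsf11 (0.493 RPKM), Ocstamp (0.237 RPKM), Dcstamp (0.0242 RPKM) and Calcr (0.00506 RPKM) formed the low end, where ranges overlapped again. Thus RNA of RANK, NFATc1 and the enzymes was present, while that of the fusion and calcitonin receptor genes was scarce or at the counting limit.

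The summed macrophage markers overlapped between the groups. None of the 14 macrophage markers was called by edgeR, 0 had an unadjusted p under 0.05, and their median log2 fold change was -0.11. Relative to the summed macrophage markers of the same library, Mmp9 stood at a log2 ratio of -8.33, -7.13 and -8.69 in the controls and -5.88, -6.23 and -7.75 after RA. This is a mean difference of 1.43 (exact permutation test, two-sided p = 0.2, where 3 libraries against 3 cannot go below 0.1), with 1.07 within set 1 and 0.77 within set 2. For Tnfrsf11a, Nfatc1, Acp5 and Ctsk the differences were -0.02, -0.24, -0.30 and -0.33, with exact permutation p between 0.6 and 1. Ocstamp differed by -1.09 (exact permutation p = 0.3). Over the 6 libraries, which fall into the 2 sets, the log2 CPM of Nfatc1 and Acp5 ran with the mean of the macrophage markers (Pearson r = 0.85 and 0.84, a description). Tnfrsf11a, Ctsk and Mmp9 ran against that mean (r = -0.92, -0.83 and -0.74). The mean weights each marker equally, whereas the sum used for the ratios was led by Lyz2 (mean 7644 CPM). The r values therefore do not describe the reference of the ratios, and the ratios are not read as a level per macrophage. The differences in ratio were close to those of the unadjusted CPM, and 6 genes were compared in this way, none with groups that did not overlap.

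**Figure D4:**
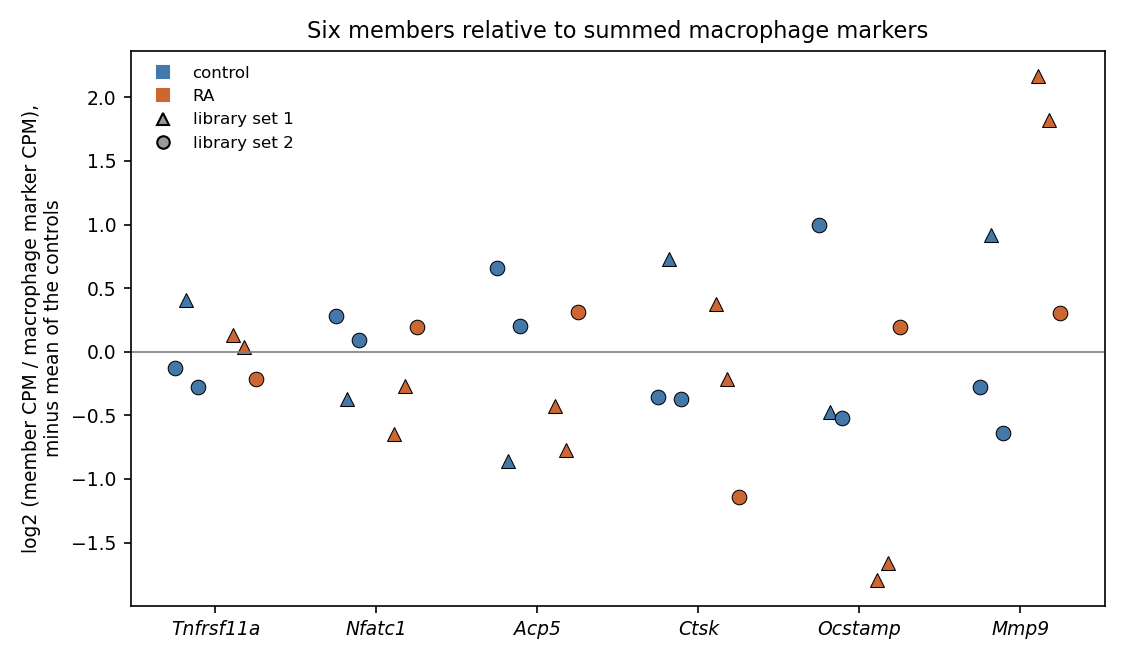
Log2 ratio of 6 members to the summed CPM of 14 macrophage markers in the same library, minus the mean of the controls, for control (blue) and RA-treated (orange) libraries, with triangles for set 1 and circles for set 2. The groups overlap for every gene, and the set 1 RA libraries of Mmp9 lie highest.

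The genes whose log2 CPM ran most like each member over the 6 libraries are given as a description, since the libraries fall into sets and between 43 and 583 genes passed a Pearson r of 0.95 for each member. Tnfrsf11b ran most like Ddx28 and Acin1 (r = 0.997 and 0.995). Tnfsf11 ran most like Cmpk1 and Ccbe1 (r = 0.992 and 0.991), and Mmp9 most like Prkd1 and Htr2a (r = 0.996 and 0.994). Tnfrsf11a ran most like Ch25h and Smim3 (r = 0.999 and 0.996). Ctsk ran most like Tmem43 and Tnc, the matrix protein tenascin C (r = 0.9998 and 0.997). Nfatc1 ran with Phf21a and Inka1 (r = 0.997 and 0.995), Acp5 with Fam174b and Nectin2 (r = 0.999 and 0.998), and Ocstamp with 5730409E04Rik and Syvn1 (r = 0.995 and 0.991).

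The wider pathway was followed with 95 further genes in 8 lists, of which 88 were tested. Of these, 0 were called by edgeR's quasi-likelihood test, where 0.0433% of all tested genes were called. At an unadjusted p under 0.05 there were 9 (10.2%, 4 higher and 5 lower after RA), against 5.25% of all tested genes (2.89% higher, 2.36% lower). DESeq2 called 1 (0.983% of all genes) and the edgeR likelihood ratio test 2 (0.968%). The median log2 fold change of the 88 genes was -0.10, against -0.02 for all tested genes, with 30 above and 58 below 0 where all tested genes had 6549 above and 7293 below. In the set-adjusted fit the median was -0.04, against -0.004 for all tested genes. In 12 of the 88 (13.6%) the groups did not overlap, a share near that of all tested genes. The set-adjusted edgeR fit called 4, namely Osmr higher and Csf1, Il6 and Pth1r lower, where 1.54% of all genes were called.

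Among the M-CSF genes, Csf1r, the receptor that keeps macrophages and osteoclast precursors alive, stood at 1114 ± 176 CPM (SD, n = 3) in the controls and 1161 ± 209 CPM (SD, n = 3) after RA (log2 fold change 0.06, SE 0.19). Its ligand Csf1 stood at 117, 311 and 123 CPM in the controls and 148, 120 and 54.8 CPM after RA. The groups overlapped, and the log2 difference was -1.22 within set 1 and -1.13 within set 2. Csf1 had a log2 fold change of -0.77 (adjusted p = 0.795 in edgeR), and it fell by 1.18 in the set-adjusted fit (adjusted p = 0.00274 in edgeR). The second ligand, Il34, had a log2 fold change of -0.89 (adjusted p = 0.795 in edgeR) and -1.31 in the set-adjusted fit (adjusted p = 0.0594 in edgeR).

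Of the 18 stromal regulators of RANKL and osteoclast formation, 15 were tested, with a median log2 fold change of 0.07. At an unadjusted p under 0.05 in edgeR there were 5 (33.3%, against 5.25% of all genes), Osmr, Sema3a and Cxcl12 being higher and Pth1r and Il1r1 lower. Osmr, the oncostatin M receptor, through which stroma is driven to make RANKL, stood at 28.6, 39.1 and 31.0 CPM in the controls and 61.2, 73.5 and 49.9 CPM after RA. All RA libraries lay above all controls (log2 fold change 0.90, SE 0.19, adjusted p = 0.353 in edgeR). The adjusted p of Osmr was 0.0123 with DESeq2 and 0.0167 in the set-adjusted edgeR fit. Sema3a, an inhibitor of osteoclast formation, stood at 0.720 ± 0.0951 CPM (SD, n = 3) and 1.96 ± 0.554 CPM (SD, n = 3), with all RA libraries higher (log2 fold change 1.44, edgeR adjusted p = 0.385, and 0.0487 by the edgeR likelihood ratio test). Its adjusted p in the set-adjusted edgeR fit was 0.129. Control 2 stood at 0.637 CPM, under the filter's minimum of 0.658 CPM, so only the RA group met it in all libraries. Sema3a thus adds no independent support to the counts at an unadjusted p. Pth1r, the parathyroid hormone receptor, stood lower in all RA libraries, with 8.52 ± 2.85 CPM (SD, n = 3) against 4.24 ± 1.56 CPM (SD, n = 3). Its log2 fold change was -1.004 (adjusted p = 0.795 in edgeR), and it fell by 1.26 in the set-adjusted fit (adjusted p = 0.0290 in edgeR). Cxcl12, the chemokine of marrow stroma, had a log2 fold change of 0.34 and Il1r1, the interleukin-1 receptor, of -0.97 (adjusted p = 0.795 in edgeR for both). Il6 fell by 2.19 in the set-adjusted fit (adjusted p = 0.00636 in edgeR), and without the set the log2 fold change was -1.31 with a standard error of 1.30. It stood at 0.699, 11.6 and 0.618 CPM in the controls and 2.39, 2.72 and 0.136 CPM after RA, so the groups overlapped. RA 3 lay under the 0.204 CPM that 3 counts stand for there, and set 1 holds only control 2.

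**Figure D5:**
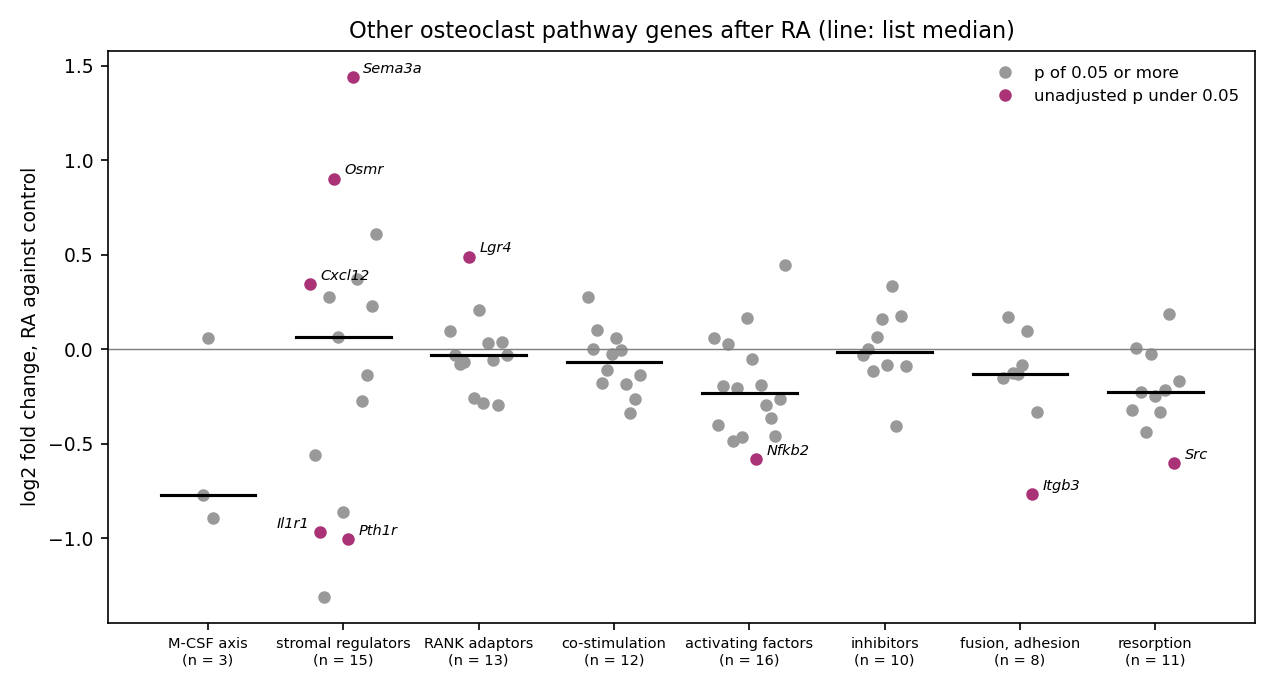
Fold change (log2) after RA of the 88 tested pathway genes by list, with a line at each list's median and purple points at an unadjusted edgeR p under 0.05. Most genes lie near 0, and Sema3a (1.44) and Osmr (0.90) stand at the top of the stromal regulators.

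Among the 13 genes at RANK's cytoplasmic side and its alternative receptor, the median was -0.03. Lgr4, which also binds RANKL, stood at 13.1 ± 1.42 CPM (SD, n = 3) in the controls and 18.4 ± 3.27 CPM (SD, n = 3) after RA, with all RA libraries higher. Its log2 fold change was 0.49 (unadjusted p = 0.0335 and adjusted p = 0.795 in edgeR). Traf2 and Map3k7 had log2 fold changes of -0.30 and 0.21 (adjusted p = 0.795 in edgeR for each), with groups that did not overlap in either. Of the 12 tested co-stimulation genes, 0 had an unadjusted p under 0.05. The smallest p there were those of the adaptor Blnk (log2 fold change 0.28) and the kinases Tec (-0.34) and Syk (-0.19), with adjusted p of 0.803, 0.803 and 0.807 in edgeR. Oscar, an osteoclast co-receptor, was not tested, with at most 0.341 CPM in any library.

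The 16 transcription factors that promote osteoclast formation had a median log2 fold change of -0.23, with 12 of them below 0 (7293 of all 13842 tested genes were) and 1 (6.25%) at an unadjusted p under 0.05, near the 5.25% of all genes. The set-adjusted fit called 0 of the 16. The gene at an unadjusted p under 0.05 was Nfkb2 (log2 fold change -0.58, unadjusted p = 0.0469 and adjusted p = 0.795 in edgeR). Next by p came Rela (-0.36) and Prdm1 (-0.29), and the groups overlapped for all of them. The 10 inhibitors had a median of -0.01, those of smallest p being Rbpj (0.33), Tnfaip3 (0.17) and Socs1 (-0.41), and 0 of them had an unadjusted p under 0.05 in edgeR.

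Of the fusion and adhesion genes 8 were tested, with a median log2 fold change of -0.13. Itgb3, the β3 chain of the integrin with which osteoclasts attach to bone, stood at 5.63 ± 0.701 CPM (SD, n = 3) in the controls and 3.31 ± 1.19 CPM (SD, n = 3) after RA, with all RA libraries lower. Its log2 fold change was -0.76 (unadjusted p = 0.0473 and adjusted p = 0.795 in edgeR). Cd44 and Sirpa had log2 fold changes of -0.12 and -0.33. Of the resorption genes 11 were tested, with a median of -0.23, and of -0.04 in the set-adjusted fit. Src, a kinase that osteoclasts need for their ruffled border, stood at 38.3 ± 4.596 CPM (SD, n = 3) in the controls and 25.2 ± 6.35 CPM (SD, n = 3) after RA, with all RA libraries lower. Its log2 fold change was -0.60 (unadjusted p = 0.0257 and adjusted p = 0.795 in edgeR). Mmp14 and the anion exchanger Slc4a2 had log2 fold changes of -0.44 and -0.33. In the set-adjusted fit Mmp14 stood at -0.56 (adjusted p = 0.0484 in edgeR), short of the 1.5-fold needed for a call. Car2, the carbonic anhydrase that supplies acid for resorption, was not tested, with at most 0.137 CPM in any library.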

How the data were processed

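The authors deposited raw counts of reads per gene, 1 library per table and not normalized. The submitters' processing notes name mm10 and Bowtie2 2.2.3, and the counting program and annotation are not given in the sources used here. Groups and replicate numbers came from the sample titles. Of 25722 identifiers, 25706 matched GENCODE M21 (GRCm38), which gave positions and exon lengths. Counts were tested in R 4.3.3 with edgeR 4.0.16 (filterByExpr, TMM, quasi-likelihood F test of RA against control over all 6 libraries, no covariates, Benjamini-Hochberg adjustment over 13842 genes), and calls needed 1.5-fold or more and an adjusted p under 0.05. DESeq2 1.42.0 was an alternative. Each standard error is the size of the log2 change over the root of its F statistic, and log2 CPM used a prior count of 2. CPM, RPKM, shares and permutation tests were computed from the deposited counts. The Tnfsf11 share, the ratios to stromal markers and scaling by library total were added after the data were seen. The script was tested on simulated data. Promoter sequences are from RefSeq (GRCm38.p6), from which windows of 5 of the 10 genes were used, and those of Acp5 and Calcr are not printed.

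The members, lists and tests were chosen with earlier results of these data known. The text names all members, in each pathway list the called genes and otherwise the 3 of smallest unadjusted p, and for each tested member the 2 genes of highest Pearson r. Il6, Cxcl12, Il1r1, Oscar, Car2 and the stromal markers other than Col1a1 were named after their values were seen. The marker named for each list is the one of highest mean CPM. Library sets are the 2 sides of principal component 1 over 1000 variable genes, members and pathway genes left out.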

Additional observations from a re-analysis of the deposited data

How the results depend on the processing

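The 10 genes gave 0 calls by edgeR's quasi-likelihood test, and pathway genes gave 0. The calls among members and pathway genes were 2 and 4 in the set-adjusted fit, 1 and 1 with DESeq2, 1 and 2 with the likelihood ratio test, and 3 and 6 at an unadjusted p with 1.5-fold, which 3.55% of all tested genes met. With 1 library left out both counts ranged from 0 to 0, but these fits called only 0 to 6 of all tested genes, so this says nothing about stability. They were also 0 with the replicate block, the macrophage marker mean as a covariate, other scalings, filters, or no fold threshold. The cause was not tested. Between the control and RA library of replicates 1, 2 and 3 the correlations were -0.51, 0.343 and 0.572. Only replicate 1 has its libraries in different sets, so these values cannot decide whether the samples were paired. With the replicate block the log2 fold changes were -1.54 for Tnfrsf11b, 2.27 for Tnfsf11 and 1.36 for Mmp9, with no call changed. The sign turned for Acp5 in the set-adjusted fit (0.0165) and, relative to macrophage markers, as a mean within sets (0.0711). With 1 library left out Tnfrsf11a ran from -0.20 to 0.15 and Ctsk from -0.72 to 0.11, and relative to macrophage markers Tnfrsf11a ran from -0.15 to 0.19, Acp5 from -0.727 to 0.0325 and Ctsk from -0.676 to 0.0825. Tnfrsf11b ran from -1.77 to -1.17, Mmp9 from 1.07 to 2.03, Ocstamp from -1.92 to -0.38, Nfatc1 from -0.54 to -0.05, Acp5 from -0.78 to -0.09, and the Tnfsf11 share differed by 18.3 to 26.9 percentage points. With coding in place of exon length, 25 of 28 pairs of tested members kept their order of levels. The log2 ratio of Tnfsf11 to Tnfrsf11b and its alternatives were not run, since control 1 had 0 Tnfsf11 counts. With few counts, Tnfsf11, Ocstamp, Dcstamp and Calcr are limited by depth.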
